A study of Rattus norvegicus with 9 samples.

Results

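The baseline described here is the RNA content of alveolar macrophages from rats that received phosphate-buffered saline (PBS) into the trachea, with no treatment compared against it. It consists of the 3 PBS libraries, of 9 in the series, taken by their labels and numbered replicate 0, 1 and 2. The animals were male Wistar rats weighing 225 to 250 g, the label gives 0 days of exposure, and the cells were collected with gentle lung massage. The other 6 libraries came from rats given nitrogen mustard at 0.125 mg/kg, 1 d or 28 d before collection, and enter no value below. The submitters call the replicates biological, and the animals in each library, their age, the time between PBS and collection and any sorting step are not stated in the sources used here. All values are FPKM, a unit of fragments scaled to the transcript's length in kilobases and to the size of the library. Levels can thus be compared between genes of different length, and the transcripts of a gene were summed. Values in sets of 3 always follow the order replicate 0, 1 and 2, and errors are SD over the 3 libraries.

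Alveolar macrophages live on the air side of the lung's gas exchange surface, where they take up inhaled particles, microbes and spent surfactant. Most descend from precursors that settle the lung around birth, and they keep their identity through the growth factor GM-CSF and the nuclear receptor PPARG. Surfactant is mostly phospholipid with some cholesterol, so these cells carry a large apparatus for lipid uptake, lysosomal breakdown, storage and cholesterol export.

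The labelled cell type was checked against its markers. Of 24 alveolar macrophage markers 18 were in the table under their current symbol, and 16 of these had a mean of at least 1 FPKM, the limit used below for a detected gene. Over all named genes 55.0% reached this limit. Car4 had a mean under 1 FPKM, and Itgax, Fabp5, Krt79, Bhlhe41, Csf2ra and Chil3 are not analysed here. Among 16 markers of macrophages in general, 15 were detected and 12 lay at 100 FPKM or more. Of 13 markers of interstitial macrophages, the population inside the lung wall, 7 were detected, near the share of all named genes. Their summed level was much lower, at 119, 62.8 and 52.7 FPKM against 5966, 3829 and 3049 FPKM for the alveolar list. The general list summed to 47690.1, 39798 and 28055 FPKM, much of it from Lyz2. Marco, a scavenger receptor that defines alveolar macrophages, and Adgre1, which encodes the F4/80 antigen, were listed at 0 in all 3 libraries. A value of 0 in this table can be a failed estimate, because genes that every cell uses were also listed at 0 in all 3 libraries. These included the ribosomal protein gene Rpl36, the small GTPases Rhoa and Rab10, the glutathione peroxidase Gpx1, the respiratory subunit Ndufa11, the chaperone Pdia6 and the acyl-CoA binding protein gene Dbi. The absence of Marco and Adgre1 from these cells therefore cannot be read from the table.

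Of 16101 genes with a symbol, 8848 (55.0%) reached a mean of 1 FPKM, 1082 reached 100 and 133 reached 1000, while 4467 were at 0 in all 3 libraries. The 55.0% is the share to hold beside each count of detected list members. Read counts were not used here, and the most common ratio between FPKM values under 1 put the depth of replicates 0 and 1 at 1.82 and 1.31 times that of replicate 2. Summed FPKM over all transcripts was 969540, 942668 and 789477, so replicate 2 had the lowest sum. Among genes of 100 to 1000 FPKM the median difference of replicate 2 from replicate 0 was -0.35 on the log2(FPKM + 1) scale, and among genes of 1 to 5 FPKM it was 0.23. Scaling each library to the same sum moved the median difference of all detected genes between replicates 2 and 0 by 0.28 on the log2 scale, from -0.01 to 0.27. Where a library is called high or low below, the order was checked under both scalings. In bulk libraries such as these, fewer cells of a type and less RNA per cell cannot be told apart. Near-identical genes (ribosomal proteins, ferritins, hemoglobins, histones, metallothioneins, Fc gamma receptors, RT1 genes) can share reads, and their single values are uncertain.

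To set macrophage promoters beside that of a gene from another cell type, 4 sequences are given, each the 250 bases before the annotated start, read 5′ to 3′ along the gene. They come from RefSeq for the rat assembly GRCr8, a later build than the one the reads were aligned to. Lyz2, Ctsd and Cd68 are macrophage genes among the most abundant here, and Scgb1a1 is a gene of airway secretory cells whose RNA was nevertheless abundant. Capitals mark the letters searched for on both strands: GAGGAA, the core bound by PU.1 (TTCCTC is the same core on the other strand); CACGTG, the E-box; and TATAAA, the TATA box.
Lyz2, chr7:54798012-54798261, minus strand: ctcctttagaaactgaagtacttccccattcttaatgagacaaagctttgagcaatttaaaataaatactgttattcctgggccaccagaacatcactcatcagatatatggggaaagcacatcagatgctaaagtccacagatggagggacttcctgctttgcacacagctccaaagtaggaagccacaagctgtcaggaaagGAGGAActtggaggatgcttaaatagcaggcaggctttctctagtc
Ctsd, chr1:206968822-206969071, minus strand: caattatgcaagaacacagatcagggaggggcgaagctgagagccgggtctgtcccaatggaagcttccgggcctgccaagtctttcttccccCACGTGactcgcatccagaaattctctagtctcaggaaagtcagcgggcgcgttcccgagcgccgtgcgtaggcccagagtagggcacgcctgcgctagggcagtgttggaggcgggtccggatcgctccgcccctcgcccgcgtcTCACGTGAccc
Cd68, chr10:54882442-54882691, minus strand: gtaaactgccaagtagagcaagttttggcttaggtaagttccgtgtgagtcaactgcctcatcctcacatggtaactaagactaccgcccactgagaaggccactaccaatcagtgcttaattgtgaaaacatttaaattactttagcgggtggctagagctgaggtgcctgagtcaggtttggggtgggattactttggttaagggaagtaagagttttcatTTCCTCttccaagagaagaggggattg
Scgb1a1, chr1:215409687-215409936, minus strand: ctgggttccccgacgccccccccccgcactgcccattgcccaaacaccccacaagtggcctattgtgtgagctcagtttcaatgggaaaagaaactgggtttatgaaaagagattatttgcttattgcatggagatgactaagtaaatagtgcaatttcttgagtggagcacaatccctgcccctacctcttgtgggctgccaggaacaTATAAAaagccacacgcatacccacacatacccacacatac
The core GAGGAA lay 46 to 41 bases before the start of Lyz2 and, on the other strand, 27 to 22 bases before that of Cd68. Ctsd held CACGTG at 157 to 152 and at 10 to 5 bases before its start, the latter inside TCACGTGA, the longer form read by TFEB and its relatives. Scgb1a1 held TATAAA at 41 to 36 bases. GAGGAA was found in the 250 bases of 14 of 22 alveolar and general macrophage markers with a promoter in the RefSeq table (63.6%), against 23.3% of all 33469 promoters and 23.0% of those of detected genes. The 14 were Adgre1, Cd14, Cd68, Cd9, Csf1r, Ctsk, Fcgr3a, Laptm5, Lyz2, Marco, Mrc1, Pparg, Ptprc and Siglec5. Among the 100 most abundant genes GAGGAA was near the share of all promoters, in 21 of 77 (27.3%). Without ribosomal protein genes it was in 6 of 29 (20.7%). The longer AGAGGAAGT, which contains GAGGAA, was found in 1 of the 22 markers, Fcgr3a, and in 0 of the 77 promoters of abundant genes. It was found in 0.651% of all promoters and in 0.789% of those of detected genes. TCACGTGA was found in 4 of 44 lysosomal genes with a promoter (9.09%), Atp6v0d1, Cln3, Galc and Lamp1, against 0.657% of all promoters and 1.61% of those of detected genes. CACGTG without regard to its flanks was found in 8 of the 44 (18.2%), in 5.59% of all promoters and in 8.68% of those of detected genes. TATAAA was found in 15 of 77 promoters (19.5%) of the 100 most abundant genes. Of these 100, 37 do not encode ribosomal proteins, and 11 of their 29 promoters (37.9%) held it, against 12.9% of all promoters and 6.50% of those of detected genes. Ccl6, Vim, Txn1, Prg4 and S100a4 were among the 11. Among the alveolar and general macrophage markers TATAAA was found in 4 of 22 promoters (18.2%). A match describes letters in this window and is no measurement of binding.

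Ferritin, the iron store of the cell, headed the profile. Ftl1, its light chain, was at 57345, 58848 and 44791 FPKM, and it alone held 6.09 ± 0.28% (SD, n = 3) of all FPKM assigned to named genes. Fth1, the heavy chain with the ferroxidase activity that loads the store, was at 21489.8, 17270.2 and 13739 FPKM. Of the 39 pairs of neighbours among the 40 most abundant genes, 38 had overlapping values and only Ftl1 stood clear of the gene below it. The 10 most abundant genes of each library held 18.1 ± 0.843% and the 100 most abundant 48.4 ± 1.27% of its named FPKM.

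Lysozyme, which cuts bacterial cell walls, came next: Lyz2 was at 22816, 17608 and 11329.8 FPKM, highest in replicate 0 and lowest in replicate 2. Small calcium-binding and actin-binding proteins filled the next places. S100a6 was at 13130.2, 16374 and 11252 FPKM and S100a11 at 14796, 12306 and 8847 FPKM. The actin monomer binders Tmsb10 (6789, 7603 and 5349 FPKM) and Tmsb4x (6673, 5598 and 3579.7 FPKM), the intermediate filament Vim (6904, 6771 and 5689 FPKM) and the LIM protein Crip1 (8234, 8879.7 and 6231 FPKM) were of the same order. Of 49 genes in the table from the list of actin and the phagocytic cytoskeleton, 48 were detected and 44 reached 100 FPKM, and their median was 574 FPKM against 18.9 over all detected genes. Ribosomal proteins made up 20 of the 40 most abundant genes and 63 of the 100, and the listed 77 held 23.6%, 24.1% and 24.3% of named FPKM.

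The signalling adaptors through which macrophage surface receptors act were nearly as abundant. Fcer1g, the common gamma chain of Fc receptors, was at 6484, 6461 and 5026 FPKM. Tyrobp, the DAP12 adaptor of TREM2 and related receptors, was at 5411, 5299 and 4091 FPKM. Secreted and lysosomal proteins followed. Ctsd, an aspartic protease of the lysosome, was at 6234, 4389 and 2798 FPKM, highest in replicate 0 and lowest in replicate 2. Lgals3, a lectin secreted by macrophages, was at 5313, 4312 and 3153 FPKM, and the chemokine Ccl6 at 5241, 3078 and 2776 FPKM, highest in replicate 0. Thioredoxin (Txn1, 5740.5, 4536 and 2834 FPKM) and peroxiredoxin 5 (Prdx5, 3712, 3458 and 2486 FPKM), both of which reduce peroxides or oxidised thiols, led the antioxidant genes. H1f4, a linker histone, was at 4455, 2238 and 4693 FPKM, lower in replicate 1 than in the other two.

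**Figure D1:**
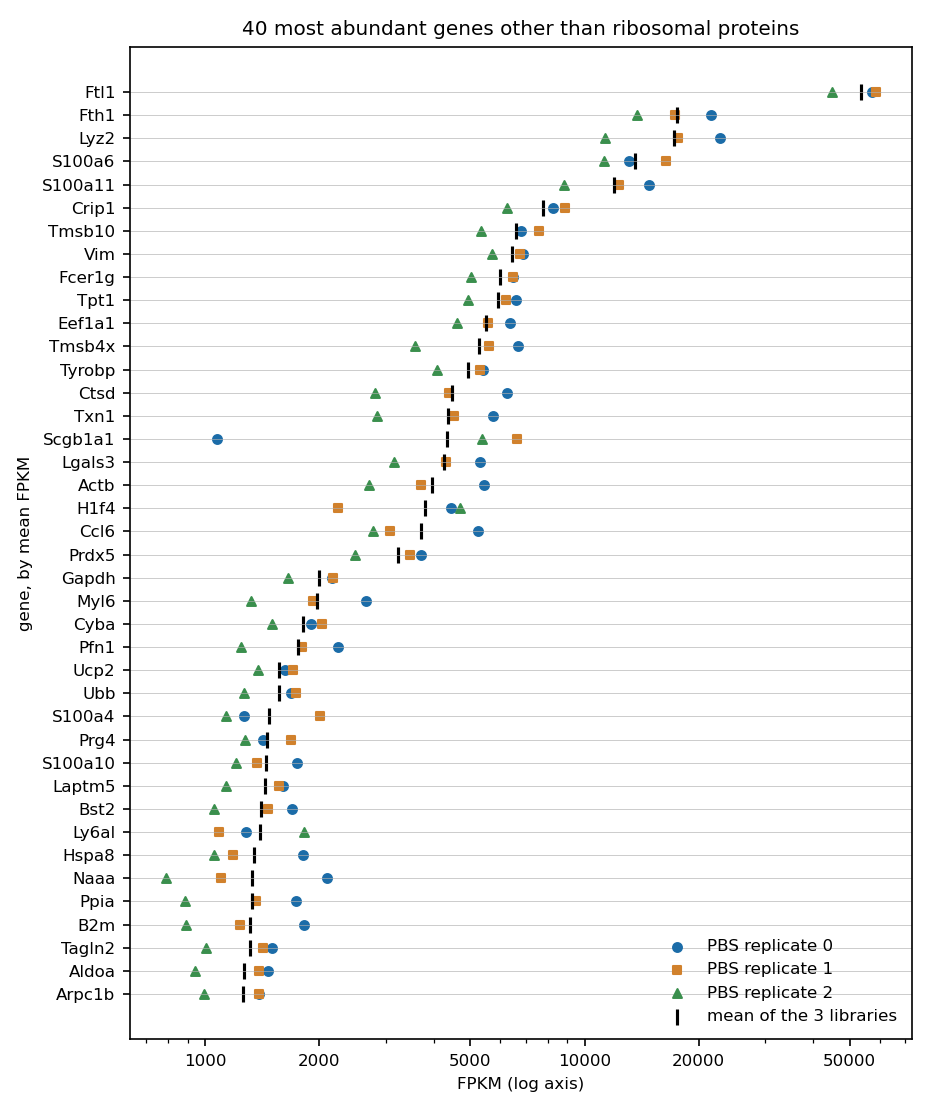
FPKM on a log axis (x) of the 40 most abundant genes that do not encode ribosomal proteins (y, by mean), with a point for each of the 3 PBS libraries and a bar at their mean. Ftl1 lies apart at the top, replicate 2 is the lowest for 37 of the 40 by FPKM and for 29 after scaling to equal sums, and Scgb1a1 is the gene whose replicate 0 value, 1076 FPKM, lies far below the other two.

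The next ranks held genes of varied function. Prg4, the lubricant glycoprotein of joints, was at 1423, 1679.5 and 1275 FPKM. Pla2g2d, a secreted phospholipase A2 made by resident immune cells, was at 1349.8, 1342 and 1071 FPKM, with a coefficient of variation of 12.7%. Ucp2, a mitochondrial carrier of the uncoupling protein family, was at 1623, 1707 and 1376 FPKM. Naaa, a lysosomal amidase that degrades palmitoylethanolamide, was at 2099, 1102 and 787 FPKM, highest in replicate 0 under both scalings. Serpinb10, an intracellular protease inhibitor, was at 1199, 1297 and 850.1 FPKM. Plet1, a surface protein used as an alveolar macrophage marker, was at 1675, 965 and 799 FPKM and led its list. Bcl2a1, which protects against apoptosis, was at 1001, 658 and 478 FPKM.

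Among the receptor lists, Fc receptors had the highest median: each of the 9 in the table, of 10 listed, was detected, with a median of 121 FPKM. Fcgrt, the neonatal Fc receptor that recycles antibody, was at 1039, 979 and 693 FPKM. Of the receptors that bind immune complexes, Fcgr2a was at 428, 347 and 273 FPKM, Fcgr3a at 402, 274 and 211 FPKM and the high-affinity Fcgr1a at 135, 136 and 93.2 FPKM. The inhibitory Fcgr2b was far lower at 22.6, 14.3 and 14.1 FPKM. No library of Fcgr2b reached the lowest library of these activating receptors, though reads shared between Fc gamma receptors leave their single values uncertain.

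Scavenger receptors bind modified lipoproteins, dead cells and dust. Of 16 in the table, 9 were detected, near the 55.0% of all named genes. Cd68, which sits mostly in lysosomes, led at 1355, 1005 and 724 FPKM. Cd36, which takes up oxidised lipoprotein and fatty acids, was at 262, 112 and 75.5 FPKM, with replicate 0 clear of the other two. Olr1, the LOX-1 receptor, was at 90.2, 75.2 and 63.3 FPKM and Msr1, scavenger receptor A, at 79.98, 69.7 and 65.3 FPKM, the latter within a narrower range. Marco, Cd163, Stab2, Scara5 and Cd5l were listed at 0. Each of the 7 lipoprotein receptors in the table was detected. Lrp1, a large receptor for lipoproteins and protease complexes, was at 135, 165 and 223 FPKM and Sort1, a sorting receptor, at 257, 273 and 234 FPKM.

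A few C-type lectins carried nearly the whole level of that list. Clec7a, the dectin-1 receptor for fungal glucan, was at 921, 754 and 527 FPKM. Clec12a, an inhibitory receptor for uric acid crystals, was at 605, 784 and 576 FPKM. Mrc1, the mannose receptor, was at 362, 347 and 419 FPKM. All 3 passed 300 FPKM in every library, while the next, Clec5a, was at 12.1, 12.2 and 11.7 FPKM. Clec4e, the mincle receptor for mycobacterial glycolipid, was at 0.6601, 1.22 and 4.38 FPKM.

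Toll-like receptors are the sensors of microbial products. Of 16 genes in the list of these receptors and their partners 12 were detected, against 55.0% of all named genes. Tlr4, the receptor for bacterial endotoxin, was at 10.96, 10.9 and 16.95 FPKM, and Tlr2, for lipopeptides, at 10.2, 9.55 and 6.76 FPKM. The RNA sensor Tlr7 (25.5, 23.04 and 25.3 FPKM) and Tlr6 (19.003, 20.9 and 22.2 FPKM), a partner of Tlr2, had the highest means of the receptors themselves. Tlr5 was at 12.6, 11.8 and 26.9 FPKM, above both in replicate 2. Tlr1 and Tlr10 had means under 1 FPKM, and Tlr11 and Tlr12 were listed at 0. The highest members of the list were accessory proteins: Ly96 (MD-2), which presents endotoxin to TLR4, was at 261, 198 and 231 FPKM and the coreceptor Cd14 at 70.3, 61.8 and 62.5 FPKM, while Cd180 (15.1, 9.09 and 9.28 FPKM) and its partner Ly86 (10.04, 9.26 and 6.06 FPKM) lay below Tlr7 and Tlr6. Of 23 listed genes of cytosolic sensing and the inflammasome 15 were in the table, and each of the 15 was detected. Il18, a cytokine released after inflammasome cleavage, was at 836, 722 and 453 FPKM, and the protease Casp1 that cleaves it at 151, 152 and 139 FPKM. The adaptor Pycard was at 116, 125 and 119.5 FPKM and the sensor Nlrp3 at 25.3, 32.7 and 46.1 FPKM. Il1b, the other main inflammasome product, was at 15.3, 12.2 and 9.57 FPKM, so the highest Il1b library lay below the lowest Il18 library.

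Of 18 Siglecs and inhibitory receptors with a row 12 were detected, and of 15 receptors and bridging proteins for dying cells 12 were, against 55.0% of all named genes. Havcr2 (TIM-3), Pdcd1lg2 (PD-L2), Cd300lb and Havcr1 (TIM-1) had means under 1 FPKM. Sirpa, which reads the "do not eat me" protein CD47, was at 786, 791 and 756 FPKM and Cd47 itself at 65.7, 53.1 and 52.01 FPKM. Cd300lf, a phosphatidylserine receptor, was at 373, 445 and 415 FPKM. Vsir, an immune checkpoint protein, was at 184, 206 and 162 FPKM and the checkpoint ligand Cd274 (PD-L1) at 38.7, 38.9 and 63.7 FPKM. Siglec5 was at 119, 75.9 and 57.9 FPKM and Siglec1, which binds sialic acids on other cells and viruses, at 60.1, 30.8 and 37.6 FPKM. Axl and Mertk are sister kinases that clear apoptotic cells, and Axl (370.4, 469.97 and 651 FPKM) exceeded Mertk (33.1, 34.2 and 65.2 FPKM) in each library. Both were highest in replicate 2. Of their ligands, Gas6 had a mean of just under 1 FPKM and Pros1 was listed at 0, which can be a failed estimate. Anxa1, a bridging and pro-resolving protein, was at 1071, 878 and 641 FPKM.

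Adhesion molecules included the tetraspanins Cd63 (1381, 998 and 741 FPKM) and Cd9 (1495, 794 and 458 FPKM), the latter highest in replicate 0 and lowest in replicate 2. Itgb2, the beta chain of leukocyte integrins, was at 309.8, 221 and 178 FPKM. Of its partners, Itgal (LFA-1) was at 121, 137 and 152 FPKM, while Itgam, the CD11b chain typical of monocytes and neutrophils, was at 1.05, 1.31 and 2.53 FPKM. Vsig4, a complement receptor of resident macrophages, was at 25.4, 31.5 and 22.1 FPKM. The hyaluronan receptor Cd44 was at 340.4, 356 and 281 FPKM.

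Receptors for chemokines were mostly near 0: 9 of 26 were detected, against 55.0% of all named genes, and 2 reached 100 FPKM. The higher was Cxcr1, the interleukin-8 receptor best known from neutrophils, at 373, 274 and 218 FPKM. Its relative Cxcr2 was under 1 FPKM on average. The other was Ccr1, a receptor for CCL3 and related chemokines, at 161, 244 and 182 FPKM. Ccr2, the receptor of blood monocytes, was listed at 0, and Cx3cr1 was at 0.744, 1.77 and 0.771 FPKM.

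Receptors for cytokines and growth factors were detected for 39 of 55 genes in the table, against 55.0% of all named genes. The list also holds adaptors and the antagonist Il1rn. Il17ra, the shared chain for interleukin 17, was the highest true receptor at 603, 742 and 728 FPKM. Tnfrsf8 (CD30), best known from activated lymphocytes, was at 132, 141 and 128 FPKM and varied little. Csf1r, the receptor for macrophage colony-stimulating factor, was at 49.5, 60.1 and 62.3 FPKM, and Csf2rb, the signalling chain for GM-CSF, at 27.02, 39.01 and 53.1 FPKM, lowest in replicate 0. Tgfbr2 was at 82.4, 104 and 104 FPKM and Tgfbr1 at 66.4, 73.5 and 54.6 FPKM, which together form the receptor for TGF beta. Ifngr1, for interferon gamma, was at 121, 111 and 106 FPKM. Trem1, which amplifies inflammation, was at 77.7, 116 and 108 FPKM. Trem2, which senses lipids and marks lipid-laden macrophages, was at 39.9, 144 and 256 FPKM, more than 6-fold higher in replicate 2 than in replicate 0.

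Of 49 receptors for purines, prostanoids and other small mediators, 24 were detected, against 55.0% of all named genes. P2rx4, an ATP-gated channel, led at 136, 199 and 123 FPKM, followed by the nucleotide receptor P2ry2 at 54.8, 50.4 and 70.996 FPKM. Ffar4, the receptor for long-chain fatty acids also called GPR120, was at 49.9, 46.001 and 38.4 FPKM. Hcar2, the niacin receptor, was at 38.1, 36.8 and 23.8 FPKM. Cd74, the invariant chain of MHC class II, was at 37.6, 66.6 and 64.3 FPKM and the class II chain RT1-Da at 10.8, 14.6 and 12.8 FPKM. The peptide loader RT1-DMa was higher at 200.2, 208 and 176 FPKM, and Ciita, the master regulator of the class, was under 1 FPKM on average.

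**Figure D2:**
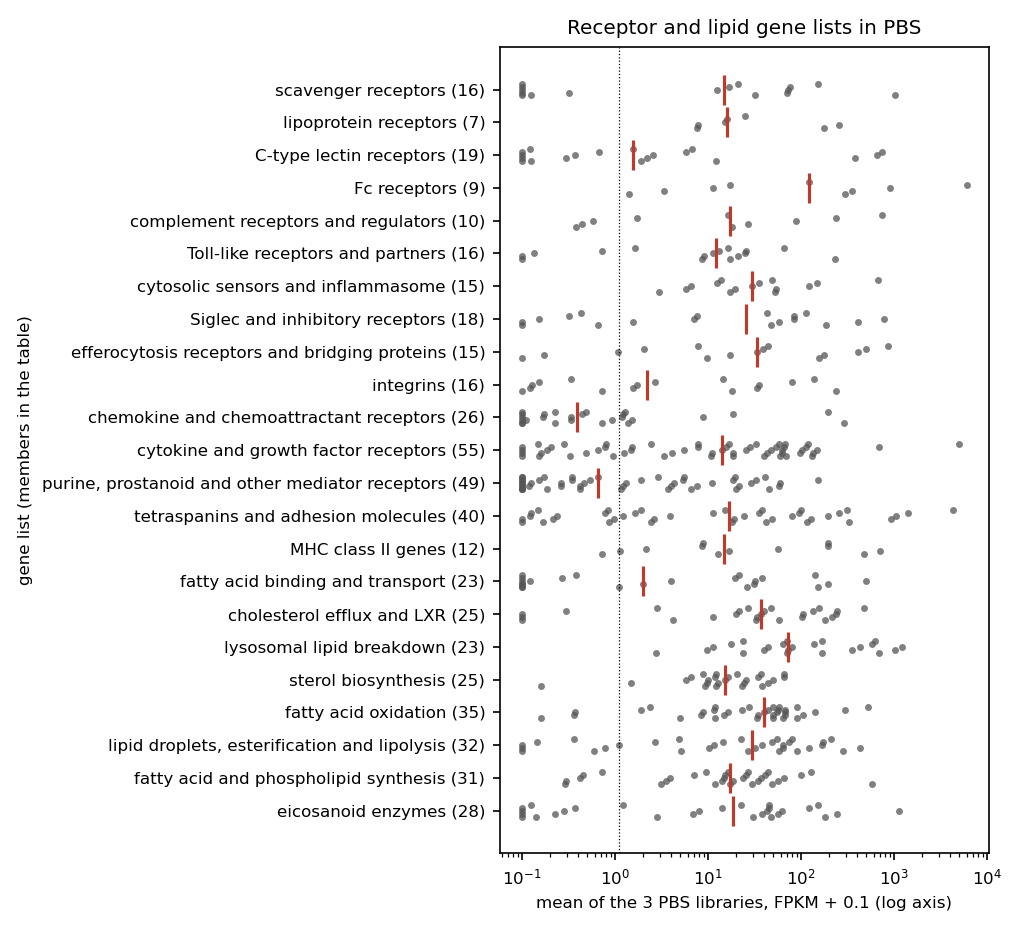
Mean FPKM of the 3 PBS libraries plus 0.1 on a log axis (x) for every member of each receptor and lipid list (y, with the number of members in the table). Points are genes, red bars list medians over all members, and the dotted line marks 1 FPKM; Fc receptors have the highest median of the receptor lists and lysosomal lipid breakdown that of the lipid lists.

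Lipid handling began with uptake and binding. Fabp4, the fatty acid binding protein induced by PPARG, was the highest of 23 genes at 927, 401 and 172 FPKM, a fall of over 4-fold from replicate 0 to replicate 2 under both scalings. Lpl, the lipase that frees fatty acids from lipoproteins, was at 249.9, 193 and 143 FPKM and Scp2, a sterol carrier protein, at 167, 146 and 104 FPKM. Both had the same order of libraries as Fabp4 with a smaller range. The fatty acid transporters Slc27a4 (37.8, 39.1 and 34.997 FPKM) and Slc27a1 (28.9, 31.2 and 34.1 FPKM) lay above the median of all detected genes, 18.9 FPKM. Dbi was listed at 0, with the reservation given above.

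Breakdown of lipid in the lysosome had the highest median of the lipid lists. Each of the 23 genes in the table, of 25 listed, was detected, 10 of them at 100 FPKM or more, with a median of 71.1 FPKM against 18.9 for all detected genes. Npc2, which carries cholesterol out of the lysosome, was at 1399, 1303 and 901 FPKM, while its membrane partner Npc1 was at 69.2, 71.4 and 71.3 FPKM. Psap, the precursor of the saposins that present sphingolipids to their enzymes, was at 1534, 913 and 619 FPKM. Gm2a, the activator for ganglioside breakdown, was at 788, 622 and 468 FPKM and Hexa, the enzyme it serves, at 433, 349 and 272 FPKM. Pla2g15, the lysosomal phospholipase A2 by which alveolar macrophages degrade surfactant phospholipid, was at 718, 558 and 453 FPKM. Lipa, the acid lipase for cholesteryl esters and triglycerides, was at 595, 391 and 299 FPKM. These 6 genes other than Npc1 were highest in replicate 0 and lowest in replicate 2, also after scaling to equal sums. The list as a whole held 0.786%, 0.6304% and 0.577% of named FPKM.

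Cholesterol export and its control by the liver X receptors were detected for 21 of 25 genes, against 55.0% of all named genes. Abcg1, the exporter whose loss fills alveolar macrophages with lipid, was at 522, 451 and 428 FPKM, the highest of the list. Abca1, which loads cholesterol onto apolipoprotein A-I, was at 88.4, 83.5 and 134 FPKM, and no Abca1 library came within 2-fold of any Abcg1 library. Nr1h3 (LXR alpha) was at 250.4, 214 and 182 FPKM and Nr1h2 (LXR beta) at 238, 267 and 209 FPKM, and their libraries overlapped. Ch25h, which makes the LXR ligand 25-hydroxycholesterol, was at 127, 129 and 209 FPKM, highest in replicate 2. Pltp, the phospholipid transfer protein, was at 251, 162 and 130.3 FPKM and Stard3, a late endosomal cholesterol transporter, at 250.5, 254 and 221 FPKM. Apoe, the lipoprotein that many other macrophages secrete, was at 28.7, 12.1 and 19.1 FPKM, and Apoc1, Apoc2 and Apoc4 were listed at 0.

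Storage in lipid droplets was led by Plin2, the droplet coat protein, at 668, 336 and 277 FPKM. Pnpla2, the lipase that opens droplets, was at 291, 267 and 276 FPKM and its coactivator Abhd5 at 92.3, 122 and 146 FPKM, whereas G0s2, which inhibits that lipase, was at 272, 175 and 67.1 FPKM, a range of over 3-fold under both scalings. Dgat2, which makes triglyceride, was at 252, 205 and 171 FPKM and Dgat1 at 40.4, 36.8 and 35.7 FPKM. The droplet fusion proteins Cidea (101, 95.2 and 71.6 FPKM) and Cidec (50.4, 52.7 and 43.4 FPKM), best known from fat cells, were both detected in each library. Plin1, the fat cell coat protein, was listed at 0.

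Sterol synthesis genes were lower: 24 of 25 genes were detected, none reached 100 FPKM and the median was 15.7 FPKM. Their median coefficient of variation was 23.2%, against 17.1% over all detected genes. Of the 24, 2 (8.33%) had a range of over 2-fold between libraries, near the 8.01% of all detected genes. After scaling to equal sums 5 of the 24 did, beside 1139 of the 8848 detected genes. Fdps, which makes farnesyl diphosphate, was at 68.9, 74.4 and 51.2 FPKM. Fatty acid oxidation was detected for 32 of 35 genes with a median of 46.6 FPKM, led by Etfb, an electron carrier of the pathway, at 486, 597 and 464 FPKM and Ech1, an isomerase for unsaturated chains, at 375, 289.8 and 221 FPKM. Acaa2, the last thiolase of mitochondrial oxidation, had a range of over 2-fold under both scalings at 105, 65.3 and 32.1 FPKM. Among enzymes of eicosanoid synthesis Lta4h, which makes leukotriene B4, was at 1202, 1226 and 971 FPKM. Alox5 (221, 267 and 242 FPKM) and its partner Alox5ap (206, 179.7 and 152 FPKM) start the leukotriene pathway, and Tbxas1 (125, 136 and 106 FPKM) makes thromboxane. Ptgs1 (COX-1) was at 23.2, 33.8 and 34.5 FPKM, while Ptgs2 (COX-2) was under 1 FPKM on average.

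Transcription regulators covered a wide range of levels. Of 57 factors of the macrophage lineage with a row 49 were detected, against 55.0% of all named genes, and 10 reached 100 FPKM. Cebpb, which macrophages of the alveoli need, was the highest at 673, 744 and 585 FPKM. Spi1, which encodes the lineage factor PU.1, was at 440.3, 364 and 296 FPKM. Pparg was at 176, 175 and 180.3 FPKM, a far narrower range than that of its target Fabp4. Its partner Rxra was at 90.1, 135 and 173 FPKM, lowest in replicate 0. Tfeb, which drives lysosomal genes through the longer E-box named above, was at 117, 163 and 130.1 FPKM, and its relative Mitf at 46.2, 54.4 and 61.5 FPKM. Bhlhe40, a repressor that with Bhlhe41 shapes alveolar macrophages, was at 63.4, 83.5 and 79.03 FPKM and Klf4 at 49.7, 76.9 and 89.7 FPKM. Runx1 was at 70.4, 73.8 and 123 FPKM and Cebpa at 83.2, 86.1 and 56.9 FPKM. Maf was at 9.796, 10.1 and 18.8 FPKM, while Gata6, the factor of peritoneal macrophages, was under 1 FPKM and Sall1, that of microglia, was listed at 0.

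Among the general regulators Atf4, the factor of the integrated stress response, was at 691, 707 and 542 FPKM and Xbp1, of the unfolded protein response, at 431, 391 and 319.6 FPKM. Irf3, which turns on interferon genes after viral sensing, was at 210.01, 275 and 268 FPKM, while Irf7 (11.9, 6.98 and 8.14 FPKM) and Irf4 (1.31, 0.965 and 0.875 FPKM) were far lower. Rela (45.8, 42.6 and 40.1 FPKM) and Nfkb1 (29.8, 25.5 and 25.98 FPKM), the main NF-kappaB pair, each varied little between libraries. The inhibitor Nfkbia was at 54.6, 60.2 and 109.9 FPKM, highest in replicate 2. Of the immediate early genes, which respond within minutes to handling or stimulation, Jun was at 45.9, 48.3 and 33.6 FPKM, Egr1 at 17.4, 6.66 and 11.7 FPKM and Fos at 7.29, 5.65 and 4.41 FPKM. Nfe2l2 (NRF2), the antioxidant regulator, was at 31.9, 24.1 and 28.999 FPKM. Of 23 factors that define other lineages 3 passed 1 FPKM: Foxp3 of regulatory T cells (3.68, 4.197 and 3.54 FPKM), Nkx2-1 of lung epithelium (1.63, 3.62 and 4.96 FPKM) and Gata2 of mast and progenitor cells (1.22, 2.33 and 3.12 FPKM).

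**Figure D3:**
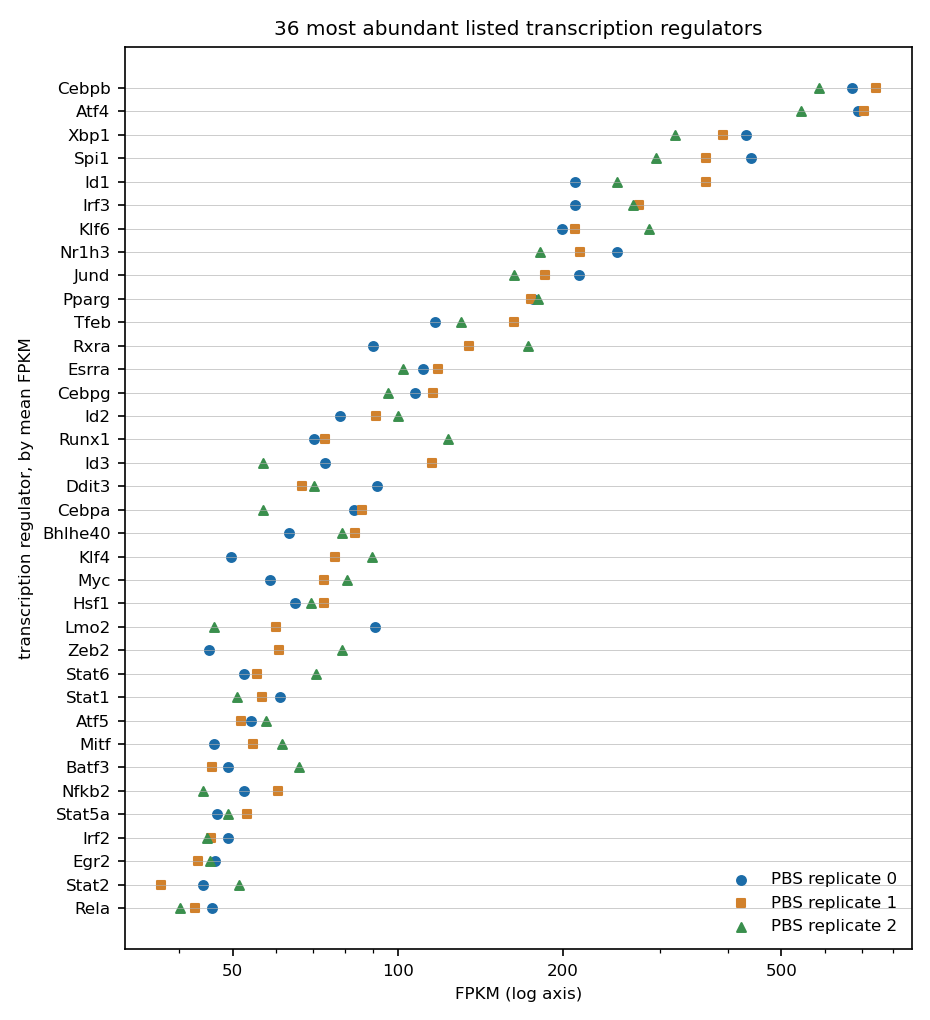
FPKM on a log axis (x) of the 36 most abundant listed transcription regulators (y, by mean), a point for each of the 3 PBS libraries. Cebpb, Atf4, Xbp1 and Spi1 lead, the 3 points of Pparg nearly coincide at 176, 175 and 180.3 FPKM, and replicate 2 is the highest for some factors (Klf6, Rxra, Runx1, Klf4) and the lowest for others (Spi1, Cebpa).

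Effector genes were uneven. Of 34 chemokines 12 were detected, against 55.0% of all named genes, and Ccl6 alone made up most of the chemokine sum. Ccl3, which recruits monocytes and neutrophils, was at 157, 148 and 129.7 FPKM and Ccl9 at 186, 91.7 and 63.5 FPKM. Ccl2, the ligand of CCR2, was at 0.598, 1.38 and 3.24 FPKM, and Cxcl1 and Ccl5 were under 1 FPKM on average. Among cytokines Igf1, a growth factor of resident macrophages, was at 325, 369.8 and 278 FPKM, Tgfb1 at 225, 206 and 156 FPKM and Tnfsf13 (APRIL), which sustains plasma cells, at 357, 312 and 251 FPKM. Tnf was at 7.64, 7.21 and 7.52 FPKM, and Il6, Il12a, Il12b and Ifnb1 were listed at 0. The interleukin 1 antagonist Il1rn was at 146, 139.7 and 105 FPKM, above Il1b and above Il1a (35.3, 16.2 and 12.6 FPKM) in every library. Gpnmb, a lysosomal glycoprotein of lipid-laden macrophages, was at 1325, 633 and 475 FPKM.

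Proteases were mainly lysosomal cathepsins. After Ctsd came Ctsb at 1296, 847 and 617 FPKM and Ctss, the cathepsin of antigen processing, at 925, 678 and 482 FPKM. Of the matrix metalloproteases Mmp14 was at 45.6, 51.7 and 41.8 FPKM, Mmp9 under 1 FPKM on average and Mmp3 and Mmp13 listed at 0. Napsa, an aspartic protease of type II cells that alveolar macrophages also hold, was at 184, 154 and 128 FPKM. Complement genes of the alternative pathway were present: Cfb at 334, 594 and 452 FPKM and Cfp (properdin) at 319, 454 and 333 FPKM. C2, of the classical pathway, was at 890.1, 804 and 545 FPKM, but C1qa, which opens that pathway, was at 0.882, 2.64 and 0.799 FPKM. Subunits of the oxidase that makes superoxide were detected, with Cyba at 1906, 2036 and 1495 FPKM, Ncf1 at 700.01, 734 and 578 FPKM, Ncf4 at 172, 206 and 171 FPKM and the catalytic Cybb at 107, 110.2 and 111 FPKM. Nos2, which makes nitric oxide, was at 0.615, 0.617 and 1.802 FPKM and Arg1, which competes with it for arginine, at 126, 93.9 and 37.1 FPKM. Slc7a2, which imports arginine, ran the other way at 71.3, 95.6 and 219.96 FPKM. The heme oxygenase Hmox1 was at 374, 200.4 and 146 FPKM, and the iron exporter Slc40a1 was under 1 FPKM on average.

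Genes of cell division were detected in 34 of 35 cases with a median of 10.5 FPKM, below the 18.9 of all detected genes. Mki67, the proliferation marker, was at 13.8, 18.7 and 18.3 FPKM and Cdk1, which starts mitosis, at 35.4, 31.4 and 26.9 FPKM. Interferon-stimulated genes were led by Bst2, the virus tether tetherin, at 1697, 1466 and 1056 FPKM, while Isg15 was at 18.4, 14.6 and 15.5 FPKM and Mx1 at 17.5, 14.95 and 15.5 FPKM. Glycolysis was led by Gapdh at 2158, 2178 and 1651 FPKM. The glucose transporter Slc2a1 was at 45.5, 44.9 and 39.01 FPKM. The vacuolar proton pump, which acidifies lysosomes, was led by its ring subunit Atp6v0c at 1033, 965 and 743 FPKM.

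RNA of other cell types was present at very unequal levels. Airway secretory cells were the clearest trace: Scgb1a1, which encodes the club cell secretoglobin, ranked 26th of all genes at 1076, 6621 and 5351 FPKM, over 4-fold higher in replicates 1 and 2 than in replicate 0 under both scalings. Scgb3a1, a related secretoglobin, was at 71.03, 802 and 738 FPKM and Bpifa1, an airway lining protein, at 288, 779 and 497 FPKM. Scgb3a2 was at 8.598, 72.2 and 34.9 FPKM and Bpifb1 at 11.9, 56.04 and 25.5 FPKM. All 6 detected members of the list were lowest in replicate 0 and highest in replicate 1, except that Scgb3a1 was highest in replicate 2 after scaling to equal sums, and the list summed to 1464, 8346 and 6657 FPKM, or 0.154%, 0.907% and 0.868% of named FPKM. Reg3g and Tff2 were listed at 0. Red blood cell RNA followed the same order of libraries. The alpha globin Hba-a1 was at 244, 1174 and 744 FPKM and the beta globin Hbb at 124, 552 and 278 FPKM, and the 7 erythroid genes summed to 610.2, 2655 and 1593 FPKM.

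Other epithelium was weaker. Sftpc, which encodes surfactant protein C of type II cells, was at 28.2, 79.1 and 30.9 FPKM, Sftpb at 2.88, 5.02 and 3.54 FPKM and Sftpa1 at 4.01, 10.999 and 4.797 FPKM, with Sftpd listed at 0. Of the type I markers, Hopx was at 18.1, 47.7 and 25.3 FPKM and Ager at 9.34, 15.8 and 12.1 FPKM. The keratins Krt8 (7.33, 27.2 and 5.23 FPKM) and Krt18 (7.299, 27.8 and 11.005 FPKM) and the ciliated cell gene Tppp3 (93.5, 181 and 107 FPKM) were also highest in replicate 1. The type I list summed to 39.8, 92.7 and 50.7 FPKM. The general epithelial list summed to 54.7, 151 and 78.4 FPKM and the ciliated list to 173, 279.8 and 174 FPKM. Replicate 1 was the highest in each sum under both scalings.

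Markers of other leukocytes were mostly low, with a few higher members in several lists. Of 14 T cell markers 4 were detected, against 55.0% of all named genes, and the list summed to 30.8, 34.3 and 23.3 FPKM. Of the detected members, Lck was at 12.7, 15.6 and 8.79 FPKM and Il7r at 12.5, 6.33 and 6.16 FPKM. Cd8a was at 2.02, 5.17 and 4.21 FPKM and Cd2 at 1.76, 1.22 and 1.60 FPKM. Cd3e was listed at 0, which can be a failed estimate. Cd3d (0, 1.01 and 0 FPKM) and Cd3g (0.539, 2.23 and 0 FPKM) had means under 1 FPKM. Cd4, which rat macrophages can carry as well, was at 0.7802, 1.298 and 1.27 FPKM. The B cell list summed to 646, 473 and 231 FPKM, but Fcrla, an intracellular Fc receptor-like protein best known from B cells, accounted for nearly all of it at 643, 466 and 219 FPKM. Cd79b, a chain of the B cell receptor, was at 0.236, 2.29 and 2.99 FPKM and was lowest in replicate 0, where Fcrla was highest. Of 14 neutrophil genes 7 were detected, against 55.0% of all named genes, Cxcr1 being the highest. Camp, an antimicrobial peptide of neutrophil granules, was at 61.4, 56.8 and 31.4 FPKM and Lcn2, an iron-chelator binding protein of these granules, at 26.8, 12.5 and 13.2 FPKM. S100a8 was at 4.33, 16.1 and 26.5 FPKM and S100a9 at 1.88, 5.17 and 5.41 FPKM, both lowest in replicate 0, and the G-CSF receptor Csf3r was at 13.4, 27.2 and 5.55 FPKM, highest in replicate 1. The granule genes Elane, Prtn3 and Mmp8 had means under 1 FPKM. The mast cell protease Mcpt1 was at 0.846, 33.9 and 4.21 FPKM, with nearly all of it in replicate 1.

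Of 10 natural killer genes 3 were detected, Ncr3, an activating receptor, among them at 23.3, 21.6 and 23.8 FPKM, and Prf1 and Gzmb were under 1 FPKM. Of 11 fibroblast and smooth muscle genes only Tagln passed 1 FPKM, at 12.2, 14.04 and 17.6 FPKM, with Col1a1 under 1 FPKM and Pdgfra and Pdgfrb listed at 0. Of 10 endothelial genes 4 were detected and the list summed to 28.9, 35.5 and 25.5 FPKM. The junction protein Esam, which other cells also carry, was at 17.2, 20.97 and 9.02 FPKM, the receptor kinase Tie1 at 3.698, 7.21 and 10.7 FPKM and Vwf, the von Willebrand factor, at 2.46, 2.52 and 3.93 FPKM, while Ramp2 was at 5.34, 4.72 and 1.55 FPKM and Cdh5, which marks the junctions of these cells, was under 1 FPKM. The monocyte list summed to 1755, 2531 and 1603 FPKM, but S100a4 (1267, 2006 and 1135 FPKM), Cd44 and Itgal, which macrophages share, made up nearly all of it.

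**Figure D4:**
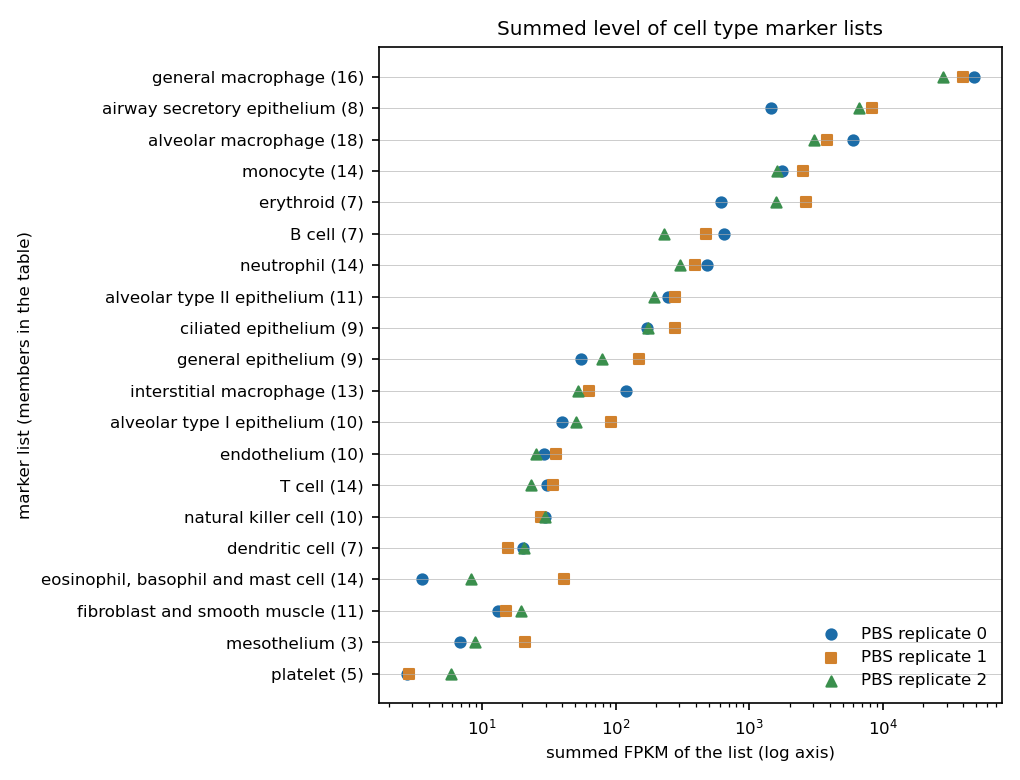
Summed FPKM on a log axis (x) of 20 cell type marker lists (y, with the number of members in the table), a point for each of the 3 PBS libraries. The general macrophage list is the highest, the airway secretory list comes next in replicates 1 and 2, and the airway secretory and erythroid sums are lowest in replicate 0.

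The libraries ranked genes alike, with Spearman's rho of 0.976 between replicates 0 and 1, 0.969 between 1 and 2 and 0.955 between 0 and 2 over 8848 detected genes, which share libraries and are not independent. The median coefficient of variation was 17.1%, from 28.9% among genes of 1 to 5 FPKM to 14.1% among those of 20 to 100 FPKM. The highest library exceeded the lowest by more than 2-fold on FPKM + 1 for 709 of 8848 detected genes (8.01%), and for 1139 of the 8848 after scaling to equal sums. With 2 libraries in place of 3 the count was 218 of 8786 without replicate 2, 237 of 8903 without replicate 0 and 508 of 8838 without replicate 1. Against that background, 5 of 5 detected erythroid genes, 5 of 6 airway secretory genes and 0 of 76 ribosomal protein genes had such a range (4, 5 and 0 after scaling). Of the alveolar macrophage markers 5 of 16 did, and 4 after scaling. Genes with a long genomic span were relatively higher in replicate 2: between replicates 2 and 0 the median log2 difference was 0.25 among the 1456 genes of longest span in GRCr8 and -0.23 among the 1456 of shortest span (Spearman's rho 0.304 across 7278 genes of at least 5 FPKM, a description, since these genes share the libraries and their depth). How RNA quality or depth bears on this was not tested.

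The 30 widest genes with a mean of at least 20 FPKM comprised 14 microRNA genes and 16 others. Each of the 14 was above 0 in 1 library and at 0 in the other two, such as Mir142 at 0, 0 and 2558 FPKM, and 15 of 434 microRNA genes were above 0 at all. Mature microRNAs are shorter than the reads, so these values do not measure them. Over all 694 genes with a range of more than 2-fold other than microRNA genes, replicate 2 stood apart above the other two, which were closer to each other, for 219 (245 after scaling), replicate 1 for 92 (78) and replicate 0 for 90 (115), on log2(FPKM + 1). Replicate 0 stood apart below for 142 (139), replicate 2 for 127 (93) and replicate 1 for 24 under either scaling. The most extreme genes were divided otherwise: of the 16 others 10 were highest in replicate 1 (9 after scaling), 5 in replicate 0 and 1 in replicate 2 (2 after scaling). The first group held 3 secretoglobins, 3 globins and Bpifb1, the antimicrobial peptide Defb4 (9.39, 59.3 and 13.5 FPKM), the heat shock gene Hspa1a (10.2, 72.4 and 8.23 FPKM) and Lgals1 (19.2, 171 and 106 FPKM), a lectin that many cell types secrete. Hspa1a stood out in replicate 1 alone.

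Those highest in replicate 0 included enzymes and receptors known from macrophages. Tgm2, a protein cross-linking enzyme of alternatively activated macrophages, was at 245, 122 and 31.6 FPKM. Lilrb4, an inhibitory receptor, was at 235, 41.7 and 61.1 FPKM. Tmem176b, a membrane protein of antigen-presenting cells, was at 99.2, 19.9 and 11.3 FPKM and Pf4, a chemokine of platelets and macrophages, at 73.6, 29.3 and 9.55 FPKM. With Fabp4, all were highest in replicate 0 under both scalings. Trem2 was the only one highest in replicate 2 before scaling. Replicate 0 was also the library with the least airway secretory RNA (1464, 8346 and 6657 FPKM) and with the greatest depth, and the part of either in these ranges was not tested.

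**Figure D5:**
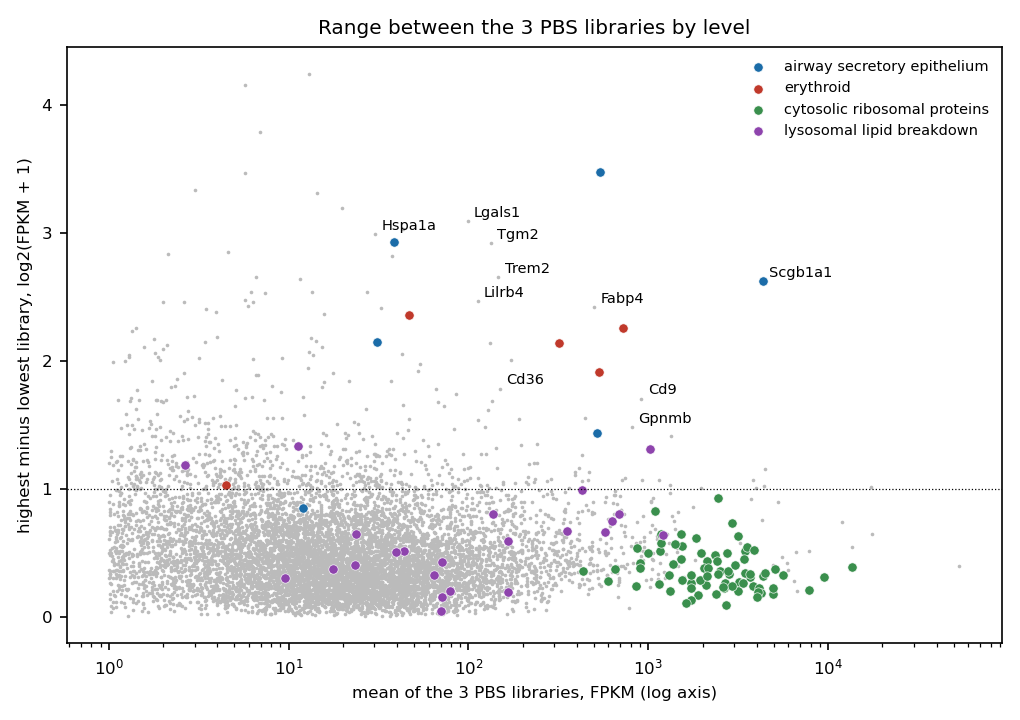
Highest minus lowest of the 3 PBS libraries on the log2(FPKM + 1) scale (y) against mean FPKM on a log axis (x) for detected genes other than microRNA genes; each point is a gene and the dotted line marks 2-fold. Erythroid and most airway secretory genes lie above the line and ribosomal protein genes below it, and Fabp4, Trem2, Tgm2 and Lgals1 stand out among the abundant genes.

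Transcript variants could be compared for 342 detected genes with more than 1 RefSeq transcript. The leading transcript held over 90% of the gene's FPKM for 101 of them, and the median share was 77.5%. The same transcript led in all 3 libraries for 253 of the 342.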

How the data were processed

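RNA of alveolar macrophages was sequenced as paired reads of 75 bases after a TruSeq RNA preparation, per the labels' protocols. Per the submitters' processing notes, TopHat and Cuffdiff were used with the rat build rn4; versions, annotation, strand and how multiply matching reads were counted are not given in the sources used here. What the authors deposited is FPKM per RefSeq transcript, 18197 rows, and only the 3 PBS columns were used.

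A RefSeq table for assembly GRCr8 gave a symbol to 17189 rows (94.5%), and the other 1008 rows, 2.23% to 2.84% of summed FPKM, were left out. The FPKM of a symbol's rows were summed, 246 rows with a locus suffix included. A mean of 1 FPKM called a gene detected and a range of over 2-fold on FPKM + 1 called it wide. No groups were compared and no test was made. Depth is known only as ratios, so no counting intervals are given. Python 3.11.15, numpy 2.4.6, pandas 2.3.3 and scipy 1.17.1 were used, and the spread measures were tested on simulated data.

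The members and the 69 gene lists (1817 of 1986 listed symbols matched) were chosen with earlier results of these data known. The rule named the 40 genes of highest mean, up to 8 of the highest members of each list and its defining members at 0, the 30 widest genes of at least 20 FPKM, and a set of macrophage and other cell type markers. Other named genes, and the motifs CACGTG and TCACGTGA, were chosen after their values were seen. A few genes the rule could name are not reported here. Alternatives covered scaling, isoforms, filters, pseudocounts and libraries left out.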

Additional observations from a re-analysis of the deposited data

How the results depend on the processing

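Of 62 recomputed values 53 stayed within their limit and 9 moved. The limit was 1.5-fold for counts and the SD between libraries for the share of the 100 most abundant genes. For the median coefficient of variation it was the SD of its values with a library left out, so these values were judged by their own spread. The share is taken within each library, so rescaling libraries could not change it, and those settings count among the 53. The number of detected genes (8848) ran from 8786 to 8903 with a library left out. Without ribosomal protein genes the 100 most abundant genes held 42.5% of FPKM in place of 48.4%, and 20 of the 40 most abundant genes stayed in that list, since the other 20 encode ribosomal proteins. The median coefficient of variation (17.1%) ran from 10.6% without replicate 2 to 18.97% without replicate 1. The count of wide genes depended on the settings most: 709 became 1139 with equal sums, 451 with a filter of 5 FPKM, 1105 with a pseudocount of 0.1 and 232 with a pseudocount of 5. It ran from 218 without replicate 2 and 237 without replicate 0 to 508 without replicate 1, with 2 libraries in place of 3. No paired analysis was possible because no groups were compared and the replicate numbers link no samples within PBS. Leaving out microRNA genes, or genes at 0 in any library, was chosen after seeing the data and moved none of the values it was applied to by more than these limits. Of 69 list sums, 53 were highest in the same library under FPKM and equal sums, and replicate 0 was the highest in 44 of the 69 by FPKM and in 33 with equal sums. The ratio of depths, 1.82 and 1.31 to 1, limits low genes most in replicate 2.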

Other observations

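Mitochondrial and protein turnover genes, not described above, were abundant. Of 75 subunits of oxidative phosphorylation 71 were detected with a median of 221 FPKM, against 18.9 over all detected genes. Ndufa13, a subunit of complex I, was at 1102, 1402 and 1143 FPKM and Cox4i1, of cytochrome oxidase, at 1109, 989 and 737 FPKM. All 37 listed proteasome subunits were detected with a median of 103 FPKM. They included the immunoproteasome subunits Psmb8 (209, 174 and 150.2 FPKM), Psmb9 (209, 193 and 158 FPKM) and Psmb10 (203, 219 and 175 FPKM), which cells usually raise under interferon, beside the constitutive Psmb5 (125, 101 and 71.8 FPKM) and Psmb6 (194, 177 and 128 FPKM).

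Of 300 solute carriers 157 were detected, near the 55.0% of all named genes, and 11 reached 100 FPKM. Slc11a1 (NRAMP1), which pumps metal ions out of the phagosome, led at 262, 294 and 282 FPKM with little spread. Slc39a2, a zinc importer, was at 235, 142 and 121 FPKM and Slc15a3, a lysosomal peptide transporter, at 160.3, 154 and 134 FPKM. Of 51 antioxidant genes 46 were detected, with a median of 96.95 FPKM. Metallothioneins, which bind zinc and copper, were high: Mt1 was at 924, 907 and 599 FPKM and Mt2A at 681, 761 and 578 FPKM. Among Rab GTPases, which steer vesicles, Rab7a of late endosomes was the highest at 296, 313 and 269.6 FPKM, next to Rab5c of early endosomes at 303, 247 and 209.8 FPKM.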
